A study of Mus musculus with 4 samples.

Results

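The 6 actin genes of the mouse genome that encode muscle and cytoplasmic actin were followed in cardiac progenitor cells with and without Isl1. They are Actc1 (cardiac muscle), Acta1 (skeletal muscle), Acta2 and Actg2 (smooth muscle) and Actb and Actg1 (cytoplasmic). They were taken by symbol from the deposited transcript table, 6 of 20701 genes, and where a symbol had several transcript entries the one with the highest summed count was used, as for Acta1 and Actg1 with 2 entries each. RNA-Seq had been done on mouse E14 Tg(Nkx2-5-EmGFP) embryonic stem cells, which carry a green fluorescent reporter of the cardiac transcription factor gene Nkx2-5. Cells were differentiated for 5 days in embryoid bodies and the reporter-positive cells were sorted, so that every library holds cells that had switched the reporter on. There were 2 control libraries and 2 Isl1_KO libraries, genotype Isl1-/-, made by CRISPR/Cas9 editing in the same reporter line. Each group came from 2 different clones, so that the spread within a group can include differences between clones. The design text speaks of a knockdown by short hairpin constructs, while the sample titles, the genotype label and the study's methods give a knockout, which was followed here.

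Actin monomers polymerise into the thin filaments of muscle and into the cortical and stress fibres of every cell. Cardiac and skeletal alpha-actin build the sarcomere, and the embryonic heart also makes smooth muscle alpha-actin before it is replaced by the cardiac form. Muscle actin genes are classical targets of serum response factor, SRF, which binds a 10-base element called the CArG box and works with the cofactors myocardin (Myocd) and the myocardin-related factors Mkl1 and Mkl2. Isl1, a LIM-homeodomain factor, acts in second heart field progenitors. The question here is which actin transcripts differed in cells without it.

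The promoters are shown because the CArG box is the element through which SRF acts on actin genes. In the RefSeq promoter table (GRCm38.p6), 4 of the 6 genes were matched by symbol, and their 250 bases before the start are printed 5′ to 3′ with the CArG box in capitals. Actb and Actg2 were not matched.
Actc1, chr2:114052876-114053125, minus strand: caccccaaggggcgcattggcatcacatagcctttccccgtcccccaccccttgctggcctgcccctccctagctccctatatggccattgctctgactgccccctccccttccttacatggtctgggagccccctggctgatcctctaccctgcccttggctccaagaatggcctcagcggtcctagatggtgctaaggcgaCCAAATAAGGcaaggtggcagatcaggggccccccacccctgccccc
Acta1, chr8:123894776-123895025, minus strand: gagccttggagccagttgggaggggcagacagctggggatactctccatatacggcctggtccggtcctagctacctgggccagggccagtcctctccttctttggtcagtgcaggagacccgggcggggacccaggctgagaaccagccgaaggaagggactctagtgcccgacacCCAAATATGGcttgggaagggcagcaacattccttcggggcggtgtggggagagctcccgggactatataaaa
Acta2, chr19:34255374-34255623, minus strand: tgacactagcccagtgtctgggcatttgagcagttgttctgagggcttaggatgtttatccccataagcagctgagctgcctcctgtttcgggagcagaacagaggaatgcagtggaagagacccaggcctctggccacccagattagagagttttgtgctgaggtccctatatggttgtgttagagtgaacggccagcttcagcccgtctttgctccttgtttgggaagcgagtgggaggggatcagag
Actg1, chr11:120348496-120348745, minus strand: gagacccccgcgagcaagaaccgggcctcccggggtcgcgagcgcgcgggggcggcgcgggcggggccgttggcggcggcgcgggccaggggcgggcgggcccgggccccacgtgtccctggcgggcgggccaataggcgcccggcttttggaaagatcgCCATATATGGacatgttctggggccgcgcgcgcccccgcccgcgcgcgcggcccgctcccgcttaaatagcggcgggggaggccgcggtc
An exact CArG box was found in 3 of the 4 promoters. In Actc1 it read CCAAATAAGG and began 47 bases before the start, in Acta1 it read CCAAATATGG at 73 bases and in Actg1 it read CCATATATGG at 90 bases. The Acta2 window held no exact box, but it held 2 windows that depart from the box by 1 base, CCCTATATGG at 84 and CCTTGTTTGG at 34 bases before the start. The same letters CCCTATATGG lay 175 bases before the Actc1 start. Windows with 1 departure were thus not particular to Acta2, since Actc1 held 3 and Acta1 held 2 besides their exact boxes, while Actg1 held 0. Both strands read the same pattern, so 1 search covers both. Distances are counted from the start given in RefSeq, whose place was not checked here. Among 27025 genes with a promoter of this length, 378 (1.40%) held an exact box, and 5112 (18.9%) held one exactly or with 1 departure. A match, or the lack of an exact one as in Acta2, describes the letters and not binding by SRF.

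On the NCBIM37 assembly, from which mm9 is made, all 6 genes lie on the minus strand and on 6 different chromosomes. Actc1 spans 113873018 to 113879284 of chromosome 2, Acta1 126415669 to 126418651 of chromosome 8 and Acta2 34315580 to 34329826 of chromosome 19. Actg2 spans 83462899 to 83486259 of chromosome 6, Actb 143664794 to 143668433 of chromosome 5 and Actg1 120207004 to 120209856 of chromosome 11. An exon of Actg1 overlaps that of 1 other annotated gene and counting used both strands, so reads of these genes could not be told apart, whereas the other 5 genes have no such overlap. The coding sequences of the 6 genes are 81.48% (Actc1 and Actg1, and also Acta2 and Actg1) to 88.65% (Actb and Actg1) identical. Most transcripts nevertheless hold little sequence that is repeated in the genome. Of all windows of 50 bases in the Actc1 and Actg2 transcripts, 0% occur exactly elsewhere in the genome, and the share was 0.404% for Acta2, 2.22% for Acta1 and 15.4% for Actb. Actg1 stands apart, since 96.7% of its windows of 50 bases and 95.3% of those of 75 bases have an exact copy elsewhere, while 1.94% of the shorter windows are shared with another of the 6 genes. Its level below is therefore uncertain, because how reads with several matches were treated is not given in the sources used here.

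With 1 entry per gene, library totals were 8821517 and 9147425 for control, and for Isl1_KO 13186109 and 11388333 counts. The targeted gene Isl1, checked first, gave 309 and 326 counts in the control libraries but 17 and 24 in those of Isl1_KO, a log2 fold change of -4.39 (SE 0.21, adjusted p = 0.00277). The replicates of the groups were not equally close. Chi-square over its degrees of freedom was 1.13 between the control libraries but 17.7 between those of Isl1_KO. The control libraries thus differed by little more than counting error, and their SDs are small for that reason. The test used a single spread per gene for both groups. Of the 7 cardiac progenitor markers other than Isl1, 4 were called lower in Isl1_KO (1.94% of all genes tested were), among them Nkx2-5 (186 and 181 against 62 and 50 counts), while all 7 were detected in every library. In these bulk samples fewer cells of a type and less RNA per cell cannot be told apart, which holds for every level given here.

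Levels are given as CPM, the count of a gene scaled by library size, within a gene and as CPM per kilobase of transcript between genes. In control cells 3 actins made up nearly all actin transcripts as counted (plot of levels by library). Actb had 994 and 981 CPM per kilobase, Acta2 640 and 639 and Actc1 229 and 224. Among 16855 genes with at least 1 count they ranked 8, 19 and 144 by their control mean. Acta1 with 10.8 and 8.69, Actg2 with 9.05 and 7.72 and Actg1 with 6.48 and 6.64 CPM per kilobase were far lower. The place of Actg1 is uncertain, since most of its windows have an exact copy elsewhere in the genome. The control ranges of Acta1 and Actg2 overlapped, so these neighbours in the order did not differ beyond their spread, while all other neighbours were separated. In Isl1_KO the order by the mean was Actb, Acta2, Actc1, Acta1, Actg2 and Actg1, as in control. There, the ranges of Acta1 and Actg2 overlapped, as did those of Actg2 and Actg1. Actc1 moved from rank 144 to rank 2805, and Acta2 from 19 to 117, while Actb was at 9.

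**Figure D1:**
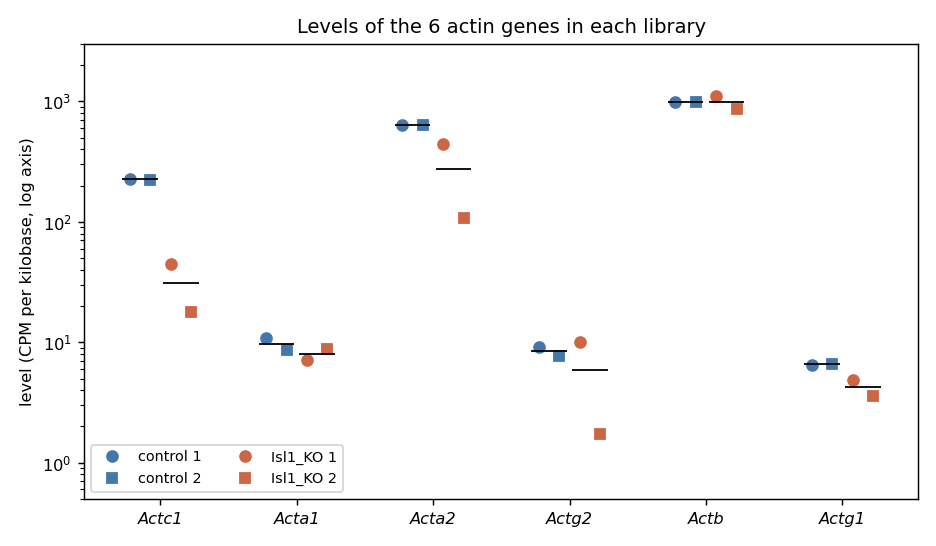
Level of each actin gene in CPM per kilobase of transcript on a log axis, with control libraries in blue, Isl1_KO libraries in orange, circles for replicate 1, squares for replicate 2 and a black line at each group mean. Both Isl1_KO points lie below both control points for Actc1 (44.6 and 17.9 against 229 and 224), Acta2 and Actg1, and the Isl1_KO points of Acta2 and Actg2 are far apart.

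Of the 6 actin genes, cardiac actin alone passed the test. All 6 passed the filter on low counts, and 1 of them was called lower and 0 higher in edgeR's quasi-likelihood test, whose background over 12715 genes was 2.45% called in both directions, 1.94% lower and 0.503% higher. Both Isl1_KO libraries lay below both control libraries for 3 of the 6 (Actc1, Acta2 and Actg1), as for 29.0% of all genes tested. They lay above them for 0 of the 6, as against 29.1% of all genes.

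Actc1, the alpha-actin of the heart sarcomere, gave 2923 and 2965 control counts, with 841 and 300 in Isl1_KO. This corresponds to 332 and 324 CPM in control against 64.6 and 26.0 CPM. Both Isl1_KO libraries were several-fold below control, and they also differed from each other. The mean fell from 328 ± 5.21 to 45.3 ± 27.3 CPM (SD, n = 2 each), 7.24-fold lower. The log2 fold change was -2.85 (SE 0.41, 95% interval -3.88 to -1.82), with an adjusted p of 0.0397. Against the control mean, the level was 5.08-fold lower in the first and 12.6-fold lower in the second Isl1_KO library. The call was lost when either control library was left out, with an adjusted p of 0.295 without the first and 0.250 without the second, at log2 fold changes of -2.84 and -2.87. Without the first Isl1_KO library the value was -3.65, and without the second it was -2.34. The study's limits of 1.5-fold and a p of 0.05 were also applied here, to the unadjusted p of DESeq2's Wald test. Actc1 was again the only 1 of the 6 to pass (adjusted p = 0.000235), against a background of 4.57% of genes lower. The study describes Actc1 as no primary target of Isl1. It normalised to Actc1 in right ventricles of Isl1 hypomorphic embryos, which are another tissue, stage and allele. Whether the lower Actc1 level here was a direct effect was not tested.

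Acta1, the alpha-actin of skeletal muscle that is also made in the embryonic heart, gave 148 and 124 control counts, with 144 and 158 in Isl1_KO. Its levels of 16.8 and 13.6 CPM in control and 11.1 and 13.7 CPM in Isl1_KO overlapped. The log2 fold change was -0.29 (SE 0.19, 95% interval -0.77 to 0.18), with an adjusted p of 0.399. It was -0.13 and -0.44 without the first and the second control library and -0.14 without the first Isl1_KO library. Without the second Isl1_KO library it was -0.45 and past the threshold (adjusted p = 0.0135), with the spread of the control pair alone. The interval leaves out a change of the size fitted for Actc1. Skeletal muscle markers were close to the floor in these cells, with a sum over 8 genes of 0.260 to 0.766 CPM, and Myod1, Myf5 and Myh8 at 0 counts in all 4 libraries.

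Acta2, the smooth muscle alpha-actin that also marks early heart muscle, was the most abundant muscle actin. Its counts were 14433 and 14952 in control, then 14794 and 3182 in Isl1_KO, or 1638 and 1636 CPM against 1137 and 276 CPM. The control libraries were almost equal, and the first Isl1_KO library lay 1.44-fold below their mean while the second lay 5.93-fold below it. The control mean was 1637 ± 1.63 CPM and that of Isl1_KO 707 ± 609 CPM (SD, n = 2 each). Its log2 fold change of -1.21 (SE 0.62, 95% interval -2.78 to 0.36) did not pass, with an adjusted p of 0.308. The fitted value was -2.57 without the first Isl1_KO library and -0.52 without the second. Both of these passed the threshold, but in such a fit the spread comes from the control pair alone and the single Isl1_KO library is assumed to vary as little.

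Actg2, the gamma-actin of visceral smooth muscle, was counted 104 and 92 times in control, and 172 and 26 times in Isl1_KO. Its levels were 11.8 and 10.1 CPM in control, with 13.2 CPM in the first Isl1_KO library above both and 2.26 CPM in the second below both. The log2 fold change of -0.48 (SE 0.72, 95% interval -2.30 to 1.34, adjusted p = 0.730) thus rests on libraries that moved in opposite directions. It was -2.27 without the first Isl1_KO library, past the threshold with the spread of the control pair, and 0.28 without the second, where it did not pass.

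Actb, the main cytoplasmic actin as counted, gave 16739 and 17146 control counts, with 27746 and 18969 in Isl1_KO. Its levels were 1900 and 1876 CPM in control, between those of the Isl1_KO libraries with 2133 and 1646 CPM. The log2 fold change was 0.00086 (SE 0.13, adjusted p = 0.998), and its 95% interval ran from -0.34 to 0.34. Without the first Isl1_KO library it was -0.20 and without the second 0.18, both past the threshold with the spread of the control pair. Actg1, the other cytoplasmic actin, gave 111 and 118 control counts, with 123 and 80 in Isl1_KO, or 12.6 and 12.9 CPM against 9.45 and 6.94 CPM. Both Isl1_KO libraries lay below control, and the log2 fold change of -0.63 (SE 0.20, 95% interval -1.14 to -0.13) did not pass after adjustment over all genes (adjusted p = 0.157). It was -0.88 and -0.43 without the first and the second Isl1_KO library, again past the threshold in these fits. Nearly all of its sequence has copies elsewhere in the genome, and their part in these counts was not tested.

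**Figure D2:**
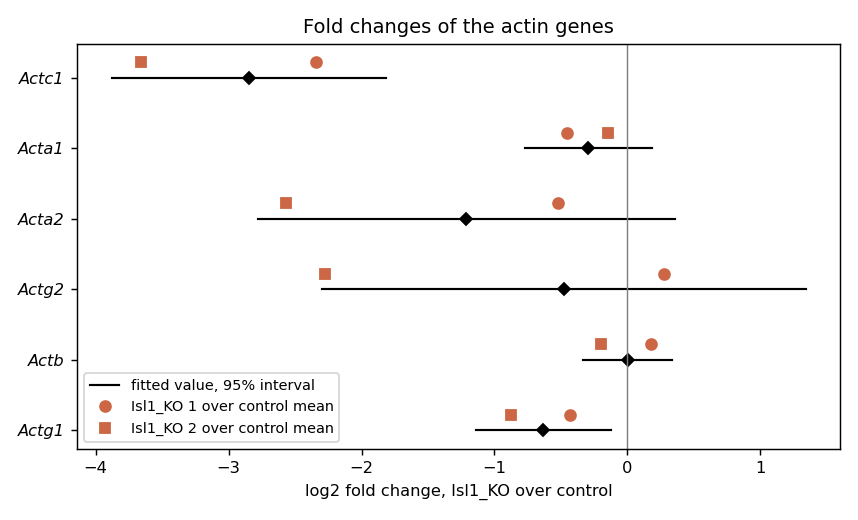
Log2 fold change of each actin gene, Isl1_KO over control, with the fitted value of edgeR as a diamond, its 95% interval as a line and each Isl1_KO library over the control mean as a circle (replicate 1) or square (replicate 2). The intervals of Actc1 (-3.88 to -1.82) and Actg1 (-1.14 to -0.13) leave out 0, only Actc1 passed after adjustment, and the points of Actg2 lie on both sides of 0.

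The make-up of actin transcripts within a library does not depend on scaling between libraries, but it takes the uncertain counts of Actg1 as they stand. The 4 muscle actins gave 47.0% and 47.1% of the actin transcripts per kilobase in control, against 31.1% and 13.6% in Isl1_KO. The groups did not overlap, with a mean share of 47.1% ± 0.0325 in control and 22.4% ± 12.4 in Isl1_KO (SD, n = 2 each). The exact permutation test gave a two-sided p of 0.333, the smallest that 2 libraries against 2 allow, so no share could pass a threshold. The size of the difference rests on Actb, the main other actin as counted. Without Actb the muscle actins made up 99.3% of the rest in control and 98.2% in Isl1_KO. Actc1 took 12.1% and 12.0% of the actin transcripts in control and 2.74% and 1.79% in Isl1_KO. Acta2 took 33.9% and 34.2% in control, 27.3% in the first and 10.8% in the second Isl1_KO library. The share of Actb was 52.6% in both control libraries and 68.6% and 86.0% in Isl1_KO. The summed level of the 6 genes was 1889 and 1867 CPM per kilobase in control against 1626 and 1001 in Isl1_KO, so the higher share of Actb was seen within a smaller total.

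Within the muscle actins, the cardiac form took a smaller share in both Isl1_KO libraries. Actc1 gave 25.8% and 25.5% of muscle actin transcripts per kilobase in control and 8.81% and 13.2% in Isl1_KO, while Acta2 gave 72.0% and 72.7% against 87.8% and 79.1%. The ratio of Acta2 to Actc1 was 2.80 and 2.86 in control and 9.96 and 6.01 in Isl1_KO, without overlap (exact permutation p = 0.333). The share of Acta1 was 1.21% and 0.989% in control and 1.40% and 6.44% in Isl1_KO, although its level in CPM overlapped between groups, since the sum of muscle actins was lower. Relative to Actb and Actg1 in the same library, the log2 ratio per kilobase of Actc1 was lower in Isl1_KO by a mean difference of -2.99, and that of Acta2 by -1.53, both without overlap between groups. Against Actg1 alone, without Actb, these differences were -2.34 and -0.89. The differences for Acta1 (-0.28) and Actg2 (-0.98) came from overlapping groups (exact permutation p = 0.667 for each). Both could turn, that of Acta1 to 0.36 without Actb and 0.062 without the first Isl1_KO library, and that of Actg2 to 0.11 without the second.

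**Figure D3:**
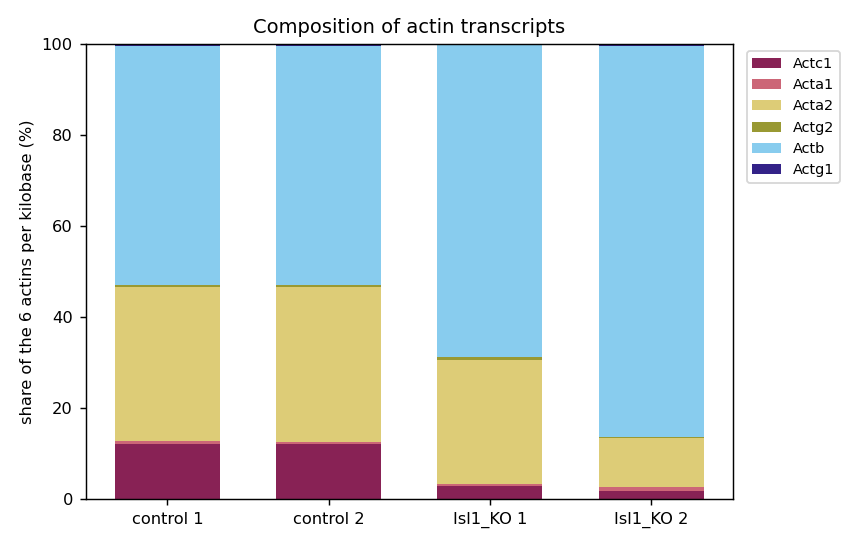
Stacked bars of the share of each gene in the summed transcripts of the 6 actins per kilobase (%), 1 bar per library. Actb fills 52.6% of each control bar and 68.6% and 86.0% of the Isl1_KO bars, while Actc1 fills 12.1% and 12.0% of the control bars and 2.74% and 1.79% of the others.

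The Isl1_KO libraries split the actin genes. The first library held 4.12 times as much Acta2 as the second (95% interval 3.96 to 4.28, counting error only), 5.86 times as much Actg2 (3.87 to 9.23) and 2.48 times as much Actc1 (2.17 to 2.84). For Acta2, Actg2 and Actc1 this difference was larger than for 99.8%, 99.9% and 99.1% of 9281 genes with a mean of at least 10 CPM. Actg2 itself lies outside this set, with group means of 10.9 CPM in control and 7.74 CPM in Isl1_KO. Its rank is therefore against genes with more counts, while it had 26 in the second Isl1_KO library. The ratio was 1.30 for Actb, 1.36 for Actg1 and 0.807 for Acta1. In control the same ratios lay between 0.976 (Actg1) and 1.24 (Acta1). Smooth muscle markers had ratios between the Isl1_KO libraries of 1.19 to 2.43 with a median of 2.00, all below those of Acta2, Actg2 and Actc1. Some of their intervals overlapped that of Actc1, among them those of Tagln (2.35 to 2.52) and Myl9 (1.94 to 2.35). The ratio was above 1 in 8 of 8 smooth muscle markers, while 48.3% of all genes tested had a ratio above 1. The interval was above 1 in 7 of the 8. The share of all genes with such an interval was not computed, so the interval counts of the marker lists here have no background. These intervals cover counting error only. Their summed level was 2261 and 2246 CPM in control against 2370 and 1170 CPM in Isl1_KO. Of these markers 0 of 8 were called, against 2.45% of all genes tested. Fibroblast markers had ratios of 0.604 to 7.73 with a median of 2.87, with an interval above 1 in 6 of 7 and below 1 in the other, Thy1, and a summed level of 2186 and 2134 CPM against 1369 and 499 CPM, 0 of 7 called. Of 5 endothelial markers with counts in both libraries, 5 had an interval above 1, with ratios of 1.31 to 2.10 and a median of 1.85. Cardiomyocyte markers lay on both sides of 1. Their summed level of 1239 and 1269 CPM in control fell to 52.9 and 42.9 CPM, with 8 of 8 called lower (1.94% of all genes tested were). The median ratio between the Isl1_KO libraries was 1.00 over the 7 markers with counts in both, with a range of 0.624 to 1.73. Of these, 2 had an interval above 1 (Ryr2 and Tnnt2) and 1 below 1 (Myl4). The part of these cell types in the actin levels was not tested.

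**Figure D4:**
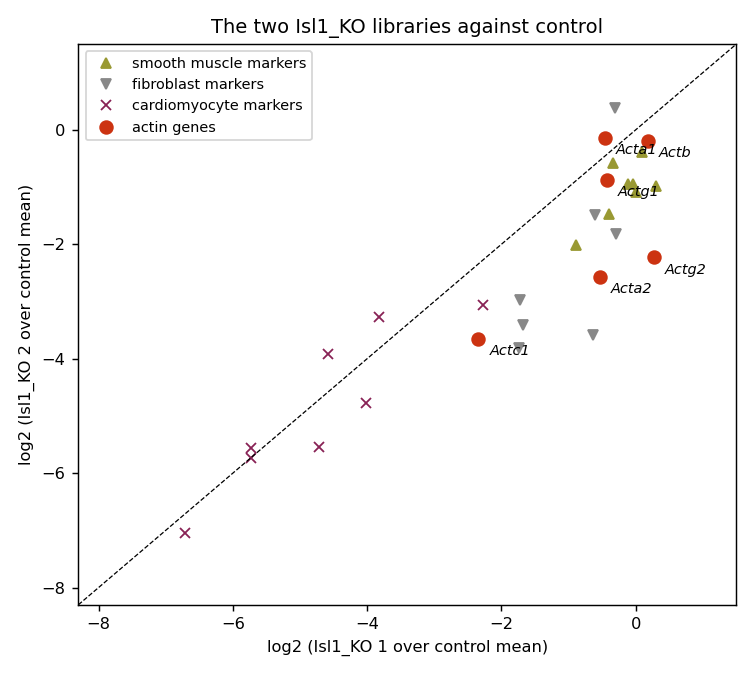
Each Isl1_KO library against the control mean on the log2 scale (0.1 CPM added to each level), the first on the horizontal and the second on the vertical axis, for the actin genes and 3 lists of cell type markers, with a dashed line where both libraries are equal. Acta2, Actg2, Actc1 and most smooth muscle and fibroblast markers lie below the line, and cardiomyocyte markers lie on both sides of it.

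The regulators and partners of actin were read from 8 lists with 108 genes, of which 93 were tested. Of these, 12 were called (12.9%, against 2.45% of all genes), 10 lower and 2 higher. This number fell without either control library and rose without either Isl1_KO library, where the spread is that of the control pair. The number called among all genes moved the same way in these fits. Of the SRF list 1 of 4 was called. Myocd, the cofactor that drives cardiac and smooth muscle genes with SRF, gave 414 and 470 control counts but 33 and 28 in Isl1_KO, and its log2 fold change was -4.30 (SE 0.14, adjusted p = 0.000695). Its level in the Isl1_KO libraries was 2.54 and 2.43 CPM, and its part in the actin levels was not tested. Srf itself was at 173 and 169 CPM in control and 152 and 112 CPM in Isl1_KO, a log2 fold change of -0.37 (adjusted p = 0.223). Mkl1 (-0.096, adjusted p = 0.625) and Mkl2 (-0.21, adjusted p = 0.195) did not pass.

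The thin filament partners of the sarcomere had 7 of 15 tested genes called lower and 0 higher, of 21 listed. Of all genes tested, 1.94% were called lower and 0.503% higher. The median log2 fold change of the thin filament partners was -1.11. Tnnt2, the cardiac troponin T that holds the troponin complex on the filament, had 215 and 222 CPM in control and 13.4 and 7.89 CPM in Isl1_KO (log2 fold change -4.35). Nebl, the heart form of nebulin (-3.87), Actn2, the alpha-actinin that anchors thin filaments in the Z-disc (-2.74), and the troponins Tnni1 (-2.60) and Tnnc1 (-1.14) were also called lower. Xirp1, an actin-binding repeat protein of cardiac cell junctions, gave 160 and 182 control counts but 1 and 0 in Isl1_KO, so its fitted value of -8.50 depends on the prior count. Tmod1, which caps the pointed end of thin filaments, was the other called gene (-1.11). Tpm1, the tropomyosin of heart muscle that other cells also make, was not called (-0.045), and its 2518 and 2536 CPM in control lay between the 2931 and 1966 CPM of the Isl1_KO libraries.

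Of the 6 lists of general actin machinery, 4 of 74 tested genes were called (5.41%, against 2.45% of all genes). Of 16 cytoplasmic filament partners (tropomyosins, filamins, non-muscle myosins and others) 0 were called, and their log2 fold changes ranged from -0.34 to 0.37. Of the 9 subunits of the Arp2/3 complex, which nucleates branched filaments, 0 were called, with values of -0.035 to 0.15. Of 15 genes for the folding of actin by the CCT chaperonin and prefoldin 0 were called, although 14 had a fitted value above 0 and 12 had both Isl1_KO libraries above both control libraries, as had 29.1% of all genes tested. Among 15 genes of monomer binding and turnover, Pfn2, a profilin, was lower in Isl1_KO (36.0 and 39.4 against 20.2 and 20.8 CPM, log2 fold change -0.88, adjusted p = 0.0306). Of 12 formins tested, which elongate unbranched filaments, Fhod3, the formin of cardiac sarcomeres, was lower (36.2 and 36.3 against 12.1 and 16.5 CPM, -1.34, adjusted p = 0.0319). Daam1, a formin of Wnt signalling, was higher (181 and 179 against 275 and 251 CPM, 0.54, adjusted p = 0.0359). Among 7 actin-related proteins tested, Actr10, a dynactin subunit, was higher (0.45, adjusted p = 0.0397). Daam1 and Actr10 are both on chromosome 12 (72932065 to 73093354 and 72038844 to 72065705), where 30 of 396 tested genes (7.58%) were called higher, against 27 of 11177 (0.242%) on other chromosomes. The part of this chromosome in their values was not tested.

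**Figure D5:**
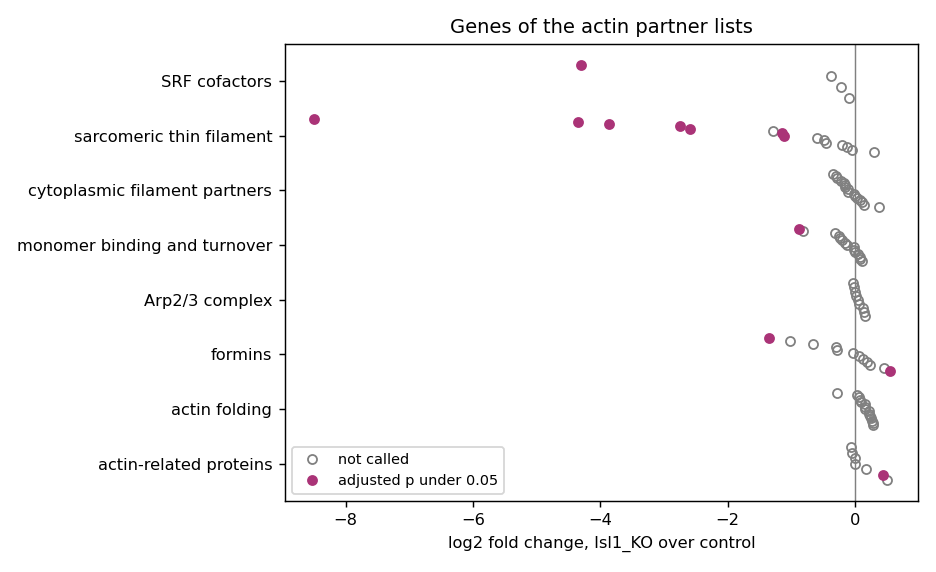
Log2 fold change, Isl1_KO over control, of the 93 tested genes in 8 lists of actin regulators and partners, filled where the adjusted p of edgeR was under 0.05 and open where it was not. The filled points are 10 lower and 2 higher genes, 7 of them in the sarcomeric thin filament list, and the cytoplasmic, Arp2/3 and folding lists have 0.

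The genes whose pattern over the 4 libraries was most like that of an actin were named by distance, the Euclidean distance of log2 CPM centred on each gene's mean, among 9281 genes. Nearest to Actc1 were Prkg1, the cGMP-dependent protein kinase (distance 0.0808), Rprm, a p53 target (0.125), Hbb-y, an embryonic globin (0.247), Rcsd1, which binds the actin capping protein CapZ (0.270), and Mecom, a zinc-finger factor of blood stem cells (0.384). Prkg1 had 28.6 and 27.4 CPM in control and 5.77 and 2.26 CPM in Isl1_KO. Nearest to Acta2 were Tgfbi, an extracellular matrix protein (0.175), Smoc2, a secreted matrix protein (0.283), Hbb-bh1, another embryonic globin (0.283), Ptgs2, an enzyme of prostaglandin synthesis (0.285), and A2m, a protease inhibitor (0.297). Tgfbi had 303 and 290 CPM in control and 178 and 48.3 CPM in Isl1_KO. Among the actins themselves, the closest of 15 pairs were Acta1 and Actb (0.593), Actb and Actg1 (0.640), Acta2 and Actg2 (0.677) and Acta1 and Actg1 (0.682), while Actc1 and Acta2 were 1.54 apart. These distances rest on 4 libraries and describe the pattern only.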

How the data were processed

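RNA-Seq of sorted day 5 cardiac progenitor cells was analysed for 2 control and 2 Isl1_KO libraries, grouped by sample titles. The authors mapped stranded poly(A) reads to mm9 with STAR and counted exonic reads per RefSeq transcript on both strands with HOMER. Deposited counts are whole reads for each transcript entry. The RPKM columns were computed by the authors in edgeR, and recomputation gave those of at least 10 RPKM for the actin entries within 0.0364%. Tool versions, read length and the treatment of reads with several matches are not given in the sources used here. The authors' own log2 fold changes, p-values and mean counts were not used. Columns of per-sample values without a matching sample numbered 0, and the share of counts in entries with no symbol was 0%. The deposited transcript length, in bases, was used per kilobase.

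One entry per symbol was kept, the one with the highest summed count. All genes were tested in R 4.3.3 with edgeR 4.0.16 (quasi-likelihood test, TMM, filterByExpr, two-sided, no covariate). P-values of 12715 genes were adjusted by Benjamini and Hochberg, and 0.05 was the threshold. Alternatives included DESeq2 1.42.0 over 16855 genes with a count, other scalings and filters, leaving out each library and the replicate number as a block. CPM values used TMM-scaled library sizes, and SDs are over 2 libraries. Single values were compared by exact permutation of libraries. A floor of 3 counts was 0.228 to 0.340 CPM. Intervals on ratios between libraries and floors cover counting error only, as reads carried no molecular identifiers. Windows of 50 and 75 bases of GENCODE vM1 transcripts were searched in NCBIM37, and promoters were read from the RefSeq table. Further software was Biopython 1.88, matplotlib 3.10.9, scipy 1.17.1, numpy 2.4.6, pandas 2.3.3 and Python 3.11.15.

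Named were the 6 actins, Isl1, Srf, Myocd, Mkl1 and Mkl2, up to 6 called genes of each partner list, 5 nearest genes of Actc1 and of Acta2 with a mean of at least 10 CPM, and up to 4 abundant genes of a marker list. Tmod1, Tpm1, Nkx2-5, Myod1, Myf5, Myh8, Thy1, Ryr2, Myl4, Hba-x, Gata1 and Itga2b were named after their values were seen. The formins Diap1, Diap2 and Diap3 were found under their synonyms Diaph1, Diaph2 and Diaph3. The members and the gene lists were chosen with earlier results of these data known. Nothing says that the clones were grown in separate experiments, so p-values measure the spread between these samples.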

Additional observations from a re-analysis of the deposited data

How the results depend on the processing

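Over 7 alternatives that kept all libraries, the log2 fold change of Actc1 stayed between -2.97 and -2.84 and past the threshold, with an adjusted p of 0.000235 to 0.0474. Those of Acta2 (-1.54 to -1.20), Actg2 (-0.77 to -0.47), Acta1 (-0.30 to -0.28) and Actg1 (-0.65 to -0.62) kept their sign and did not pass. Actb changed sign around 0, to -0.00094 with library totals only, -0.0057 with at least 10 counts in every library and -0.011 with the replicate block.

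Leaving out 1 library at a time gave -3.65 to -2.34 for Actc1, -0.45 to -0.13 for Acta1, -2.57 to -0.52 for Acta2, -2.27 to 0.28 for Actg2, -0.20 to 0.18 for Actb and -0.88 to -0.43 for Actg1. The calls of Actc1 without a control library were lost (adjusted p = 0.295 and 0.250). Without an Isl1_KO library the spread came from the control pair alone, so that Acta2, Actb and Actg1 passed either way, Actg2 without the first and Acta1 (adjusted p = 0.0135) without the second Isl1_KO library. The number of genes called (311 with all libraries) ranged from 27 to 6350, and that of partner genes (12) from 4 to 63. DESeq2 called 602 genes (305 shared with the 311), no filter on low counts 492 (311 shared) and the study's criteria 993 (267 shared); the cause was not tested. The ratio of Acta1 to the cytoplasmic actins turned to 0.36 without Actb and to 0.062 without the first Isl1_KO library, and that of Actg2 ranged from -2.07 to 0.11, turning without the second.

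The groups share replicate numbers, and the deviations of libraries with equal numbers were unrelated (r = 0.014 across 12715 genes, which are not independent replicates). The control pair differed by little more than counting error, so this r cannot decide whether libraries with equal numbers share more than a number. The replicate block gave 454 called genes (294 shared), Actc1 at -2.97 (adjusted p = 0.00589) and Acta2 at -1.54 (adjusted p = 0.120), and the block changed no call of an actin. Counts of 26 to 172 for Actg2 and 80 to 158 for Acta1 and Actg1 limit the precision of these genes.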

Other observations

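Embryonic globin genes were split between the Isl1_KO libraries in the same direction as Acta2. Hbb-bh1, an embryonic globin of primitive red cells, had 284 and 293 CPM in control and 160 and 42.0 CPM in Isl1_KO, and Hba-x had 98.3 and 97.7 CPM against 40.6 and 3.64 CPM. Neither passed the test (adjusted p = 0.206 and 0.222 in edgeR's quasi-likelihood test). Gata1, the factor of the red cell lineage, was at 9.08 and 8.10 CPM in control and 14.5 and 16.4 CPM in Isl1_KO, and Itga2b, an early blood cell integrin, was at 11.4 and 11.7 CPM against 20.1 and 18.7 CPM. Both lay above control in both Isl1_KO libraries without passing (adjusted p = 0.0698 and 0.0616). Of the other marker lists, endothelial genes summed to 171 and 175 CPM in control and 159 and 101 CPM in Isl1_KO. Of these 0 of 6 were called, against 2.45% of all genes tested. Both Isl1_KO libraries lay below both control libraries for 4 of the 6 (29.0% of all genes) and above them for 1 (29.1%). Pluripotency genes summed to 31.0 and 32.7 CPM against 26.0 and 49.5 CPM. Endoderm genes summed to 55.4 and 54.9 CPM against 53.3 and 28.2 CPM. In each of these lists 0 of 4 tested genes were called. In lists this short, 0 called is close to the share over all genes.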
